A study of Mus musculus with 8 samples.

Results

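The 6 mature miRNAs followed here through 8 small RNA libraries are best known from cells of the immune system. They are mmu-miR-142a-3p and mmu-miR-142a-5p, mmu-miR-146a-5p, mmu-miR-146b-5p, mmu-miR-155-5p and mmu-miR-223-3p. They were chosen by name, 6 of the 1978 mature miRNAs listed for the 4 hairpin libraries of C2C12 cells. The choice was made because miR-142a was much higher in PERK knockdown cells at day 0 and because miR-146a was higher with ATF4, so the values of those comparisons are given as a description. All 6 were also listed among the 605 miRNAs of the ATF4 pair, and 4 of them among the 696 miRNAs of the P19 pair, where miR-142a-3p and miR-223-3p had no entry.

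C2C12 is a line of mouse skeletal myoblasts. It was sequenced with a hairpin that targets Perk (shPerk) or with its negative control (shNC), before differentiation (D0, day 0) and after transfer to low-serum medium (D3, day 3), which gave 4 libraries. An empty vector and an ATF4 overexpression vector, in which the EF1α promoter drives ATF4, gave 2 further C2C12 libraries. A figure legend of the paper places this pair in growth medium. P19, a line of mouse embryonal carcinoma cells, was sequenced with shNC or shPerk, and the labels give neither its day nor its induction state. The methods describe lentiviral infection and puromycin selection for stable C2C12 lines, and the paper names the hairpin lines as lentiviral. How the vector entered the cells is not stated for the ATF4 pair or for each control. No label gives a clone, strain or age. Each condition had 1 library of bulk RNA, in which a change of a few cells cannot be told apart from a change per cell. No difference between conditions therefore has a replicate check, and no p-value is given for one.

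A miRNA is cut from a hairpin precursor as a duplex of 2 arms, 5p and 3p, and guides the silencing of mRNAs that pair with its seed, bases 2 to 8. miR-142 is abundant in most blood cells and low in most other tissues, and miR-223 marks granulocytes and monocytes. miR-146a is induced by NF-κB, and miR-146a and miR-146b dampen Toll-like receptor signalling through IRAK1 and TRAF6. miR-155 is induced in activated macrophages and lymphocytes. PERK is a kinase of the endoplasmic reticulum membrane that responds to unfolded protein, and ATF4 is the transcription factor whose translation rises downstream of it.

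The mature sequences are shown because the seed decides which members can act on the same sites. They are those of RefSeq on GRCm38.p6, where all 6 members had an entry, and are written 5′ to 3′ with the seed in capitals.
mmu-miR-142a-3p: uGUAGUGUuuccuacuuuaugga
mmu-miR-142a-5p: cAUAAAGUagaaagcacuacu
mmu-miR-146a-5p: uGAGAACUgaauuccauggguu
mmu-miR-146b-5p: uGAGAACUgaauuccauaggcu
mmu-miR-155-5p: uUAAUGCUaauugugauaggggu
mmu-miR-223-3p: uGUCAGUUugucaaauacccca

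Only miR-146a-5p and miR-146b-5p had a seed in common, and no other of the 1679 mouse mature miRNAs in the RefSeq table had the seed of any member. These 2 miRNAs were identical at 20 of 22 positions. They differed by the substitutions G18A and U21C, with positions counted from the 5′ end and the base of miR-146a-5p given before that of miR-146b-5p. A read that ended before position 18 could not tell them apart, and the sources used here do not say how such reads were assigned. The 2 arms of miR-142a had different seeds.

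The 6 miRNAs came from 5 genes on 4 chromosomes. Both arms of miR-142a lie in Mir142, at chr11:87756864-87756927 on the plus strand, within an intron of the lincRNA Mir142hg and opposite Mir142b, whose hairpin covers it on the minus strand. Mir146, the gene of miR-146a, is at chr11:43374397-43374461 on the minus strand and overlaps no other annotated gene. Mir146b lies at chr19:46342762-46342870, in an intron of the protein-coding gene Mfsd13a on the same strand. Mir155 is at chr16:84714140-84714204, within an exon of the lincRNA Mir155hg, and Mir223 is at chrX:96242817-96242926, within an exon of F630028O10Rik, a gene of the antisense class, and both hairpins and their hosts are on the plus strand.

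The hairpin libraries held between 8800977 and 11993448 reads on miRNAs and are given as counts, or as CPM (counts-per-million of these reads). The ATF4 and P19 pairs were deposited as RPM (reads-per-million), and the steps between their low values put their depth at about 10.6 reads per RPM for the vector, 12.2 for ATF4, 7.92 for P19 shNC and 4.46 for P19 shPerk, or a multiple of these. The 4 muscle miRNAs miR-1a-3p, miR-133a-3p, miR-133b-3p and miR-206-3p summed to between 3839 and 88480 CPM in the hairpin libraries, to 2467 and 3790 RPM in the ATF4 pair, and to 34.5 and 96.9 RPM in P19 cells, where 3 of the 4 were listed. The 11 miRNAs of the pluripotency list, from the miR-290 and miR-302 clusters, summed to at most 0.707 CPM in the hairpin libraries and to 217800 and 456100 RPM in P19 cells, and none of them was listed in the ATF4 pair. The muscle sum of the ATF4 pair came mostly from miR-206-3p, at 2351 and 3320 RPM, which had no entry in the P19 table. miR-1a-3p was lower in the vector library, at 6.42 RPM, than in P19 cells, at 21.2 and 69.6 RPM. Perk and Atf4 mRNA are not measured by small RNA libraries, so neither the knockdown nor the overexpression was checked in them.

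**Figure D1:**
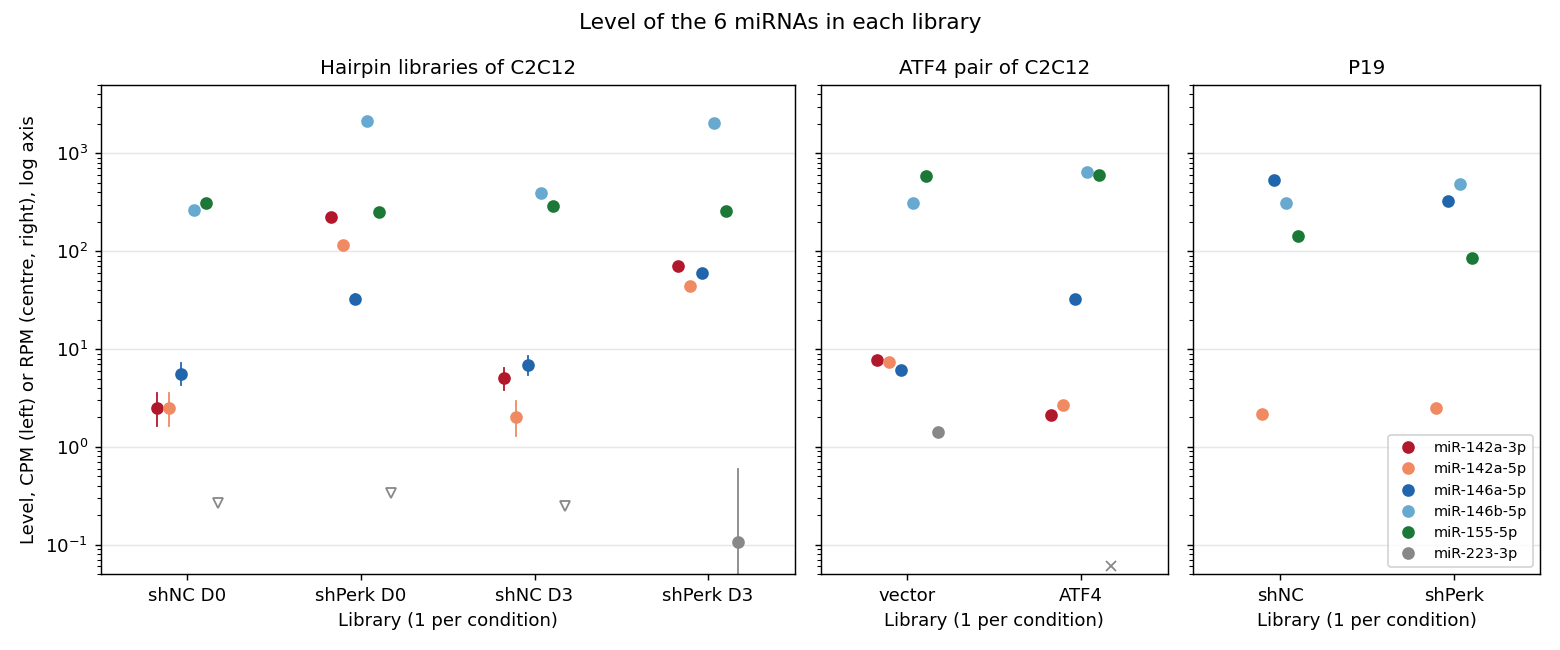
Level of the 6 miRNAs in each of the 8 libraries on a log axis, in CPM for the 4 hairpin libraries of C2C12 cells and in RPM for the ATF4 and P19 pairs. Bars are 95% Clopper-Pearson intervals from the reads, open triangles mark 3 reads where none was counted, and a cross marks a value listed at 0. The miR-142a arms rise from 2.47 CPM to over 100 CPM with shPerk at day 0, while miR-155-5p stays between 250.5 and 314 CPM in the hairpin libraries.

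miR-142a was the member that differed most between the libraries. The day 0 libraries held 28 reads of miR-142a-3p with shNC and 1977 with shPerk, and those of day 3 held 60 and 665. In CPM these were 2.47, 225, 5.00 and 70.5. Both shPerk libraries lay far above both shNC libraries, and the shPerk library of day 0 was the highest of the 4.

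miR-142a-5p, the other arm of the same hairpin, was counted with 28 and 1026 reads at day 0 and with 24 and 414 reads at day 3, each time shNC before shPerk. Its levels of 2.47, 117, 2.0 and 43.9 CPM had the same order of the shPerk libraries as the 3p arm. With 28 reads each, the 2 arms were equal in shNC cells at day 0.

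Changes are given as log2 fold changes after TMM scaling, which assumes that most miRNAs do not differ, with a 95% Clopper-Pearson interval from the reads. These intervals cover counting error only, since reads made by PCR without molecular identifiers are not independent molecules. A miRNA counted as past the fold limit when its log2 fold change was beyond 1 in either direction, once a library of the pair held it at 1 CPM or RPM or more.

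In the comparison of shPerk with shNC at day 0, which was used to choose miR-142a, miR-142a-3p was higher by a log2 fold change of 6.63 (95% interval 6.10 to 7.23), a 99.1-fold difference. That of miR-142a-5p was 5.68 (95% interval 5.15 to 6.29). They were the 2nd and 3rd highest of 602 miRNAs in this comparison. Counted with both miR-146 main arms, 4 of the 5 members measured were past the limit upward, against 15.6% of all miRNAs, and this count is fixed in part by the choice.

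At day 3, in other libraries of the same stable lines, the log2 fold change was 4.15 (95% interval 3.77 to 4.56) for miR-142a-3p and 4.78 (95% interval 4.19 to 5.45) for miR-142a-5p. They ranked 25th and 21st from the highest of 575 miRNAs. The same 4 members were past the limit upward, against 21.9% of all miRNAs, and none was past it downward. The median log2 fold change was 3.46 over the 5 members measured and 0.01 over all miRNAs. Since miR-142a was chosen for its difference between these same lines, the day 3 count and median are also descriptions. The miR-142a arms come from the same hairpin and are not separate evidence.

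**Figure D2:**
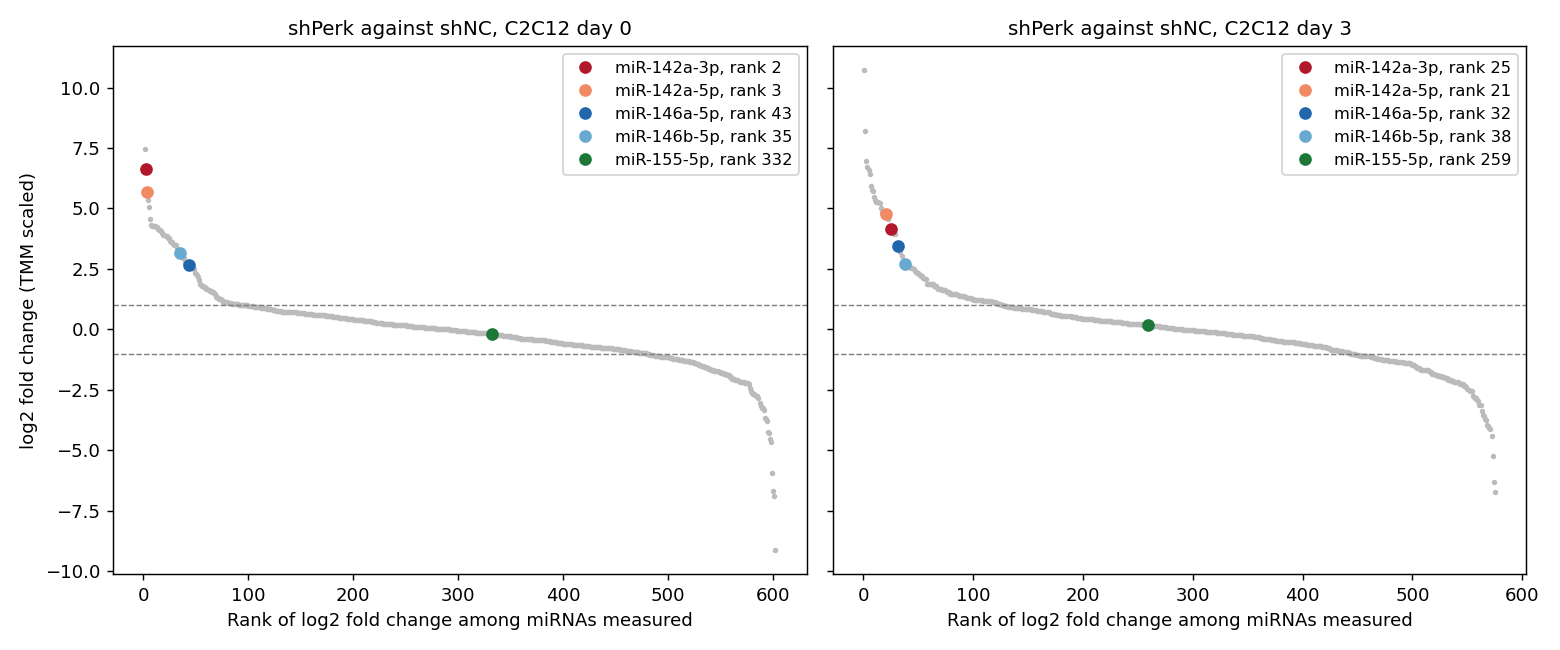
Log2 fold change of shPerk against shNC in C2C12 cells for every miRNA measured (grey), ordered from the highest, at day 0 (left) and day 3 (right). Coloured points are the 5 members measured and dashed lines mark the limit of 1. Both miR-142a arms stand at rank 2 and 3 at day 0 and at rank 25 and 21 at day 3, and miR-155-5p lies in the flat middle at both days.

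The knockdown difference of miR-142a-3p was smaller at day 3 than at day 0. The difference between the 2 log2 fold changes, day 3 minus day 0, was -2.48 (95% interval -3.14 to -1.82) for the 3p arm and -0.91 (95% interval -1.71 to -0.10) for the 5p arm. Since miR-142a was chosen for its day 0 value, these are descriptions.

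The shNC and shPerk libraries of day 0 and day 3 also give the change in differentiation, and these comparisons share libraries with those above. In shNC cells, the log2 fold change of miR-142a-3p, with 28 and then 60 reads, was 1.28 (95% interval 0.61 to 1.98), and it was the only member past the limit of the 5 measured, against 12.5% of all miRNAs past it upward. That of miR-142a-5p, with 28 and then 24 reads, was -0.04 (95% interval -0.89 to 0.80). At this depth no change of the 5p arm could be seen in shNC cells.

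In shPerk cells both arms fell from day 0 to day 3. The log2 fold change was -1.31 (95% interval -1.44 to -1.19) for miR-142a-3p and -1.05 (95% interval -1.22 to -0.88) for miR-142a-5p. Of the 5 members measured, these 2 were past the limit downward and miR-146a-5p was past it upward, against 16.9% of all miRNAs in each direction.

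The share of the 3p arm among the reads of both arms does not depend on scaling. It was 50.0% (95% Wilson interval 37.3 to 62.7) in shNC cells and 65.8% (64.1 to 67.5) in shPerk cells at day 0, and 71.4% (61.0 to 80.0) in shNC cells and 61.6% (58.7 to 64.5) in shPerk cells at day 3. The intervals of the shPerk libraries at day 0 and day 3 overlapped slightly, and the day 0 intervals of shNC and shPerk cells did not overlap. The order of shNC and shPerk was opposite at the 2 days, although the day 3 intervals overlapped.

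The antisense hairpin Mir142b gives a mature miRNA of 20 bases, all of which are the reverse complement of bases within miR-142a-3p. It is shown because it lies on the other strand of the same stretch, chr11:87756906-87756925.
mmu-miR-142b: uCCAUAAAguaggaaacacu
It was counted with 0 reads in all 4 hairpin libraries, which allows at most 0.341 CPM in the shallowest of them, the shPerk library of day 0, where miR-142a-3p was at 225 CPM.

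With ATF4, miR-142a was lower. The level of miR-142a-3p was 2.14 RPM, against 7.66 RPM for the vector, about 26 and 81 reads by the steps of the table, which gave a log2 fold change of -1.78. For miR-142a-5p, 2.71 RPM against 7.37 RPM, about 33 and 78 reads, gave -1.38. Both arms were past the limit downward, against 8.93% of all miRNAs, and ranked 11th and 22nd from the lowest of 605. That share, 54 miRNAs, depended on the settings. With a listed 0 set to 0.5 RPM in place of 1 RPM, 82 miRNAs were past the limit downward, and with upper-quartile factors 124. No counting interval is given for the RPM tables.

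The levels of miR-142a also differed between the control libraries of C2C12 cells. miR-142a-3p was 3.10 times and miR-142a-5p 2.98 times as high in the vector library, in RPM, as in the shNC library of day 0, in CPM. These libraries came from tables processed separately and from cells with different vectors, so the ratio is a comparison of levels without a test. The same ratio was 1.09 for miR-146a-5p, 1.18 for miR-146b-5p and 1.87 for miR-155-5p.

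In P19 cells miR-142a was near the lowest value listed. miR-142a-5p was at 2.15 RPM with shNC and 2.47 RPM with shPerk, about 17 and 11 reads, and its log2 fold change with TMM factors was 0.81. On the RPM values as deposited it was 0.20.

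miR-146b-5p was the most abundant member in 5 of the 8 libraries. At day 0 it had 2989 reads with shNC and 19027 with shPerk, and at day 3 it had 4755 and 19291, or 264, 2162, 396.5 and 2046 CPM. The shPerk libraries differed little between the days, and both lay far above the shNC libraries. By rank, miR-146b-5p went from 135th to 57th of the miRNAs counted at day 0 and from 120th to 52nd at day 3.

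The log2 fold change of miR-146b-5p on knockdown was 3.17 (95% interval 3.11 to 3.22) at day 0 and 2.70 (95% interval 2.65 to 2.75) at day 3. Day 3 minus day 0 was -0.47 (95% interval -0.54 to -0.39). In differentiation it changed by 0.85 (95% interval 0.79 to 0.92) in shNC cells and by 0.28 (95% interval 0.25 to 0.31) in shPerk cells, both within the limit.

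The 3p arm of miR-146b, listed as mmu-miR-146b-3p, was counted with 8, 80, 13 and 41 reads in shNC and shPerk cells at day 0 and in shNC and shPerk cells at day 3. Its log2 fold change on knockdown was 3.79 (95% interval 2.77 to 5.08) at day 0 and 2.32 (95% interval 1.41 to 3.36) at day 3. Both arms of this hairpin were thus higher in both shPerk libraries. The 3p arm made up between 0.212% and 0.419% of the reads of both arms in the shNC and shPerk libraries of C2C12 cells. Its share of RPM was 0.60% with the vector and 0.66% with ATF4.

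miR-146a-5p, which has the same seed from another gene, was far lower than miR-146b-5p in every C2C12 library. At day 0 it had 63 reads with shNC and 284 with shPerk, and at day 3 it had 82 and 563, or 5.56, 32.3, 6.84 and 59.7 CPM. The 2 shNC libraries were close to each other and below both shPerk libraries, of which that of day 3 was the higher.

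On knockdown, the log2 fold change of miR-146a-5p was 2.67 (95% interval 2.27 to 3.09) at day 0 and 3.46 (95% interval 3.12 to 3.81) at day 3. Day 3 minus day 0 was 0.79 (95% interval 0.27 to 1.31), a difference in the opposite direction to that of the miR-142a arms and miR-146b-5p. From day 0 to day 3 it changed by 0.56 (95% interval 0.07 to 1.06) in shNC cells and by 1.25 (95% interval 1.04 to 1.46) in shPerk cells. No read of its 3p arm was counted in any hairpin library.

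With ATF4, the comparison for which miR-146a was chosen, the level of miR-146a-5p was 32.7 RPM, against 6.05 RPM for the vector, about 398 and 64 reads. The log2 fold change was 2.5, the 9th highest of 605 miRNAs. For miR-146b-5p, at 641 RPM against 312 RPM, it was 1.10 with TMM and 0.72 with upper-quartile factors. These 2 were the members past the limit upward, of 5 with a fold change, against 14.5% of all miRNAs. The 3p arm of miR-146b was at 4.27 RPM with ATF4 against 1.89 RPM, about 52 and 20 reads.

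Thus miR-146a-5p and miR-146b-5p were higher both with shPerk and with ATF4 in C2C12 cells, while the miR-142a arms were higher with shPerk and lower with ATF4. The ATF4 pair shares no library with the hairpin comparisons.

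In P19 cells miR-146a-5p was at 538 RPM with shNC and 329 RPM with shPerk, and miR-146b-5p at 313 and 486 RPM. Relative to each other, miR-146a-5p was lower and miR-146b-5p higher with shPerk. With TMM factors the log2 fold change was -0.10 for miR-146a-5p and 1.24 for miR-146b-5p, and on the RPM values as deposited it was -0.71 and 0.64. The choice of scaling moved the median of all miRNAs of this pair from -0.04 to -0.65, and the share of miRNAs past the limit that were higher from 50.0% to 15.7%, so only the order of the 2 was independent of it. Of the 4 members measured in P19 cells, 1, miR-146b-5p, was past the limit upward, against 17.7% of all miRNAs.

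**Figure D3:**
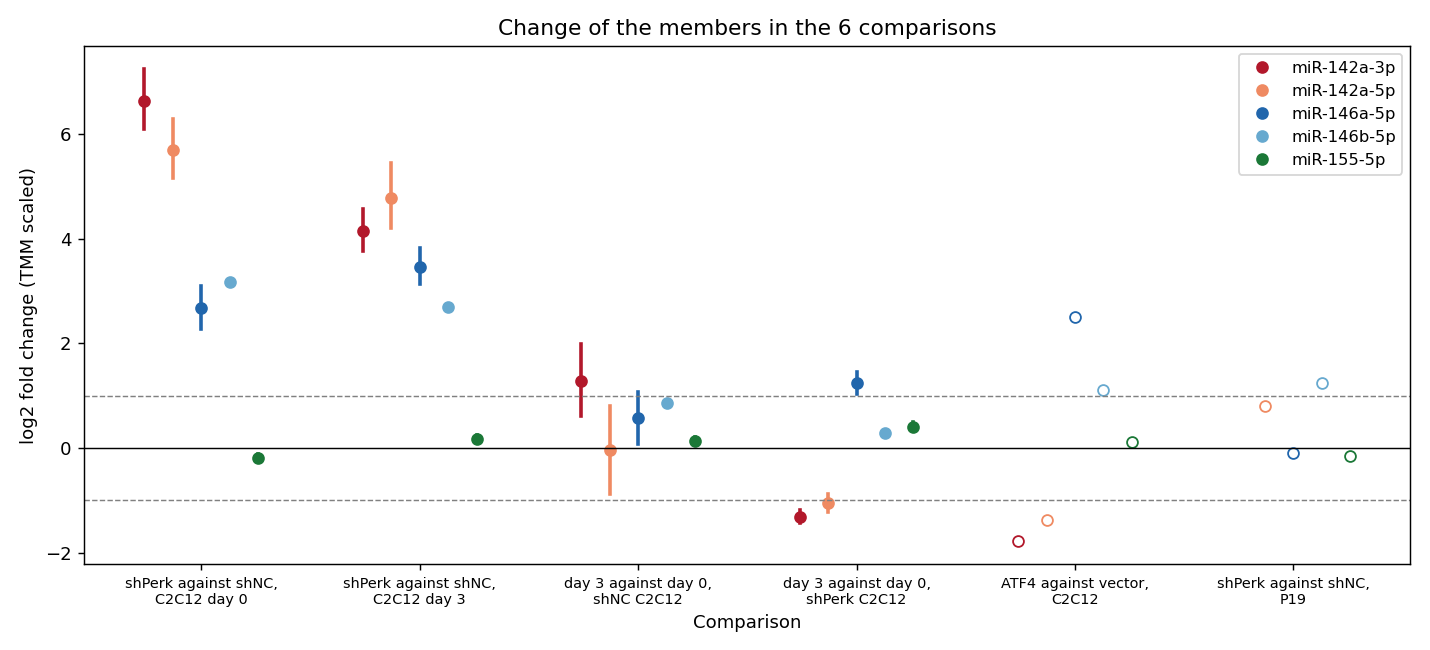
Log2 fold change with TMM factors of the members in each of the 6 comparisons, with bars for 95% Clopper-Pearson intervals from the reads (filled points) and no interval for the RPM tables (open points). Dashed lines mark the limit of 1. Both miR-142a arms and both miR-146 arms lie above 2 on knockdown in C2C12 cells at either day, with ATF4 the miR-142a arms lie below -1 and the miR-146 arms above 1, and miR-155-5p lies near 0 throughout.

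The share of miR-146a-5p in the sum of the 2 miRNAs with this seed is free of scaling. It was 2.06% (95% Wilson interval 1.62 to 2.63) in shNC cells and 1.47% (1.31 to 1.65) in shPerk cells at day 0. At day 3 it was 1.70% (1.37 to 2.10) in shNC cells and 2.84% (2.61 to 3.08) in shPerk cells. The intervals overlapped slightly at day 0 and lay apart at day 3, where the share was higher with shPerk. It was 1.90% with the vector and 4.86% with ATF4. In P19 cells it was 63.2% with shNC and 40.4% with shPerk, so the balance of the pair was of another order in the 2 lines.

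**Figure D4:**
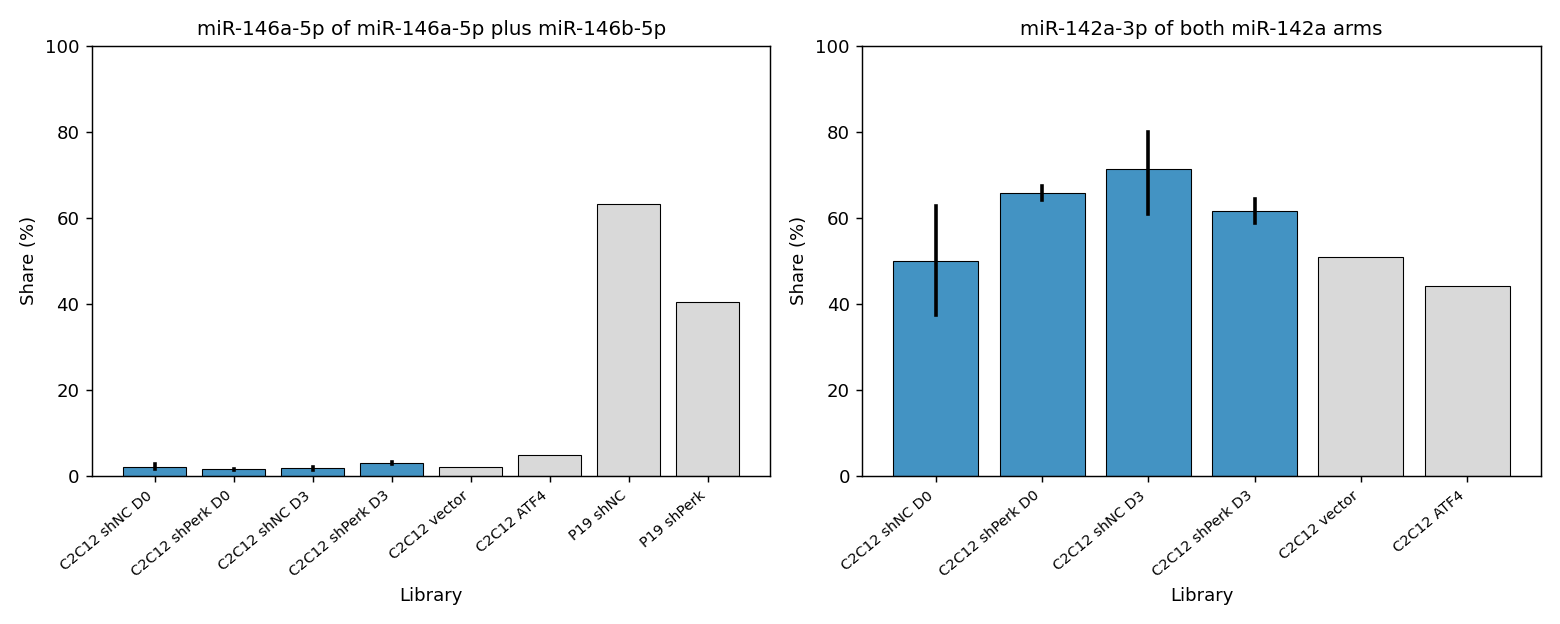
Share of miR-146a-5p in the sum of miR-146a-5p and miR-146b-5p (left) and share of the 3p arm in the sum of both miR-142a arms (right), in percent, for each library that lists both. Blue bars are from counts with 95% Wilson intervals and grey bars are from RPM values without an interval. miR-146a-5p is under 5% of the pair in the 6 C2C12 libraries and 63.2% and 40.4% in the P19 libraries.

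miR-155-5p differed least. At day 0 it had 3558 reads with shNC and 2205 with shPerk, and at day 3 it had 3456 and 2438, or 314, 250.5, 288 and 259 CPM. The 4 levels lay within a narrow range. The log2 fold change on knockdown was -0.19 (95% interval -0.27 to -0.12) at day 0 and 0.18 (95% interval 0.10 to 0.25) at day 3, and that of day 3 turned to -0.16 with scaling to library totals. Day 3 minus day 0 was 0.37 (95% interval 0.26 to 0.48).

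In differentiation miR-155-5p changed by 0.14 (95% interval 0.07 to 0.21) in shNC cells and by 0.40 (95% interval 0.32 to 0.49) in shPerk cells. With 587 RPM for the vector and 604 RPM for ATF4, its log2 fold change there was 0.10. In P19 cells it was at 143 RPM with shNC and 84.8 RPM with shPerk, which gave -0.15 with TMM factors and -0.75 on the RPM values as deposited. miR-155-5p did not pass the limit in any of the 6 comparisons.

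The 3p arm, mmu-miR-155-3p, did not follow the 5p arm at day 3. It was counted with 151 and 107 reads at day 0 and with 97 and 152 reads at day 3, shNC before shPerk each time. Its log2 fold change on knockdown was 0.00 (95% interval -0.37 to 0.37) at day 0 and 1.33 (95% interval 0.95 to 1.71) at day 3. The share of the 3p arm in the reads of the hairpin was 4.07% (95% Wilson interval 3.48 to 4.76) and 4.63% (3.84 to 5.56) at day 0, and 2.73% (2.24 to 3.32) and 5.87% (5.03 to 6.84) at day 3. The day 3 intervals of shNC and shPerk cells lay apart. The share was 3.81% with the vector, 4.82% with ATF4, and 1.74% and 1.57% in P19 cells.

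miR-223-3p, the granulocyte and monocyte miRNA, was at or near 0 in every C2C12 library. The shNC libraries of both days and the shPerk library of day 0 held 0 reads of it, which allows up to 0.265, 0.250 and 0.341 CPM, and the shPerk library of day 3 held 1 read. miR-223-3p was at 1.42 RPM with the vector, about 15 reads, and was listed at 0 with ATF4. The 5p arm had between 0 and 2 reads in the hairpin libraries, was at 1.04 RPM with the vector and was listed at 0 with ATF4. No fold change is given for either arm, and the smallest value above 0 in the ATF4 library was 1.07 RPM.

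The other markers of blood cells were compared with miR-142a, since it is itself one. Of 12 further miRNAs known from blood cells, miR-486a-5p and miR-486b-5p had identical counts and are also found in muscle. Of the other 10, between 5 and 7 had at most 3 reads in each hairpin library. Their summed level was 912 CPM in shNC cells and 453 CPM in shPerk cells at day 0, and 430.2 and 366 CPM at day 3. In CPM, which are not scaled by TMM, the sum was lower in the shPerk library at both days. miR-139-5p was the highest of the 10 in every C2C12 library, and with miR-342-3p it made up most of the sum. In shNC and shPerk cells, miR-139-5p was at 760 and 404 CPM at day 0, and at 360.5 and 336.5 CPM at day 3. The order of the sum is thus mainly that of these miRNAs. The far lower miR-451a went the other way, with 6.27 and 9.09 CPM at day 0 and 2.67 and 7.74 CPM at day 3. The rest of the 10 had at most 11 reads in each hairpin library. The log2 fold change of miR-139-5p on knockdown with TMM factors was -0.78 at day 0 and 0.23 at day 3. The day 3 order of the sum is therefore given for CPM only.

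Of the 5 blood list members measured at day 0, none was past the limit upward, and miR-342-3p and the 2 copies of miR-486 were past it downward, against 15.6% of all miRNAs upward and 20.3% downward. The copies have identical counts and are not separate evidence. At day 3, miR-451a, the erythroid miRNA, was past it upward, with 32 reads for shNC and 73 for shPerk, and the same 3 were past it downward, against 21.9% and 23.0% of all miRNAs. miR-342-3p fell from 1625 to 331 reads at day 0 and from 786 to 196 reads at day 3. The endothelial miRNA miR-126a-3p had between 755 and 1004 reads in the hairpin libraries and its log2 fold change on knockdown was 0.16 at day 0 and 0.44 at day 3. With ATF4, 3 of the 7 blood list members listed were past the limit downward and none upward, against 8.93% and 14.5% of all miRNAs. They were the copies of miR-486 and miR-139-5p, which was at 1076 RPM with the vector and 393 RPM with ATF4. In P19 cells, with TMM factors, miR-139-5p, at 28.4 and 108 RPM, and miR-126a-3p, at 1194 and 1883 RPM, were past it upward. They were 1 of 7 and 1 of 2 of their lists, against 17.7% of all miRNAs. The RPM values of miR-126a-3p as deposited differed by less than the limit. In differentiation no member of the blood or endothelial list was past it in shNC or shPerk cells. What part other cells had in the level of miR-142a was not tested.

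A list of 12 further miRNAs known from innate immune signalling included targets of NF-κB and regulators of Toll-like receptor signalling. At day 0, with TMM factors, 3 of the 12 were past the limit upward on knockdown and 1 downward, against 15.6% and 20.3% of all miRNAs. The median was 0.48. At day 3, also with TMM factors, 2 were past it upward, against 21.9% of all miRNAs, and none downward, against 23.0%, with a median of 0.31. miR-9-5p, an NF-κB-induced miRNA that is also abundant in neural cells, was past it at both days. Its reads were 1956 with shNC and 23241 with shPerk at day 0, and 6604 and 38128 at day 3. The log2 fold changes were 4.07 and 3.21 (95% interval of the latter 3.17 to 3.25).

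miR-221-3p and miR-222-3p, which lie in the same cluster, were past the limit at day 0, with log2 fold changes of 1.07 and 1.5, and were at -0.88 and -0.11 at day 3. The calls near the limit depended on the scaling. In CPM, without TMM, miR-221-3p was at 3338 and 6406 at day 0, within the limit. At day 3 it was at 4401 and 1903 CPM, past the limit downward. miR-212-3p, at -0.98 at day 0 with TMM factors, was at 2.47 and 1.14 CPM, past the limit downward. miR-132-3p was at 0.87 at day 0 and at 2.20 at day 3. miR-187-3p was the list member past the limit downward at day 0, with 51 and 17 reads. miR-21a-5p, the highest of the list in each C2C12 library, was at -0.11 and 0.56.

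With ATF4, miR-9-5p was at 76.0 and 236 RPM and miR-210-3p, known as a hypoxia-induced miRNA, at 93.8 and 185 RPM. They were the 2 of the 12 past the limit upward, near the 14.5% of all miRNAs, and none was past it downward, against 8.93%. The RPM values of miR-210-3p as deposited differed by less than the limit. The median of the 12 was -0.0026. In P19 cells, with TMM factors, miR-147-3p was past the limit upward, at 2.02 and 3.59 RPM, and miR-125b-5p downward, at 608 and 190 RPM. This was 1 of 12 each way, against 17.7% of all miRNAs. miR-147-3p had about 16 reads in each P19 library, and its RPM values as deposited differed by less than the limit.

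In differentiation, 3 of the 12 were past the limit upward in shNC cells (miR-9-5p, miR-132-3p and miR-210-3p) and miR-147-3p was past it downward, against 12.5% and 16.5% of all miRNAs. In CPM, miR-132-3p and miR-210-3p differed by less than the limit. In shPerk cells, miR-132-3p and miR-212-3p, which come from a single cluster, were past it upward, and miR-221-3p and miR-222-3p downward, 2 of 12 each way against 16.9% of all miRNAs.

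The miRNAs with the nearest pattern were sought over the 6 C2C12 libraries. Likeness was the root mean square difference of log2 levels, centred over the 4 hairpin libraries and over the ATF4 pair, among the 364 miRNAs that reached 10 CPM in a hairpin library and had a value above 0 in all 6. Since 6 values are few and share libraries with the comparisons above, the order is a description.

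For miR-142a-3p the nearest was miR-142a-5p, at 0.41, and the reverse held. The next were miR-883a-3p, at 1.04, and miR-465a-3p, at 1.07 from the 3p arm and at 0.83 from the 5p arm, against medians of 2.34 and 2.20 over all candidates. Its counts, 250 and 3425 reads at day 0 and 190 and 4514 reads at day 3, were identical to those of its paralogs miR-465b-3p and miR-465c-3p, so these cannot be told apart. Unlike the miR-142a arms, it was higher with ATF4 (25.1 RPM) than with the vector (14.7 RPM).

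For miR-146a-5p the nearest were miR-9-3p and miR-195a-5p, both at 0.38, and miR-195a-3p, at 0.46, and miR-146b-5p was the fifth, at 0.50. For miR-146b-5p they were miR-195a-3p, at 0.18, miR-547-3p, at 0.33, and miR-9-3p, at 0.34. miR-195a-3p had 151 and 742 reads at day 0, 184 and 693 reads at day 3, and was at 14.8 RPM with the vector and 38.7 RPM with ATF4. The median over all candidates was 1.51 for miR-146a-5p and 1.27 for miR-146b-5p.

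For miR-155-5p the nearest were miR-130a-3p, at 0.07, miR-214-3p, at 0.08, and miR-339-3p, at 0.09, against a median of 0.53. The levels were centred within the hairpin libraries and within the ATF4 pair, so levels between the tables were not compared. miR-223-3p was under the minimum and was not compared.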

How the data were processed

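Small RNA was sequenced by a company after linkers were ligated to both ends, with reverse transcription, PCR and gel selection, and reads were annotated with bowtie. The submitters' processing notes name mm10 and GRCm38. The sources used here do not give the aligner version, the miRNA release or how reads with several matches were assigned. For the 4 hairpin libraries the authors deposited raw counts per mature miRNA. For the ATF4 and P19 pairs the authors deposited RPM values, in which low values are listed at 0. The log2 fold changes, p-values and q-values that the authors deposited are their own comparisons and were not used. All columns of per-library values were mapped by their labels.

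The members and lists were chosen with earlier results of these data known. A miRNA was kept where 1 library of the pair reached 1 CPM or RPM. Log2 fold changes used TMM factors from these miRNAs (edgeR 4.0.16, R 4.3.3) with a prior count of 0.125. In the RPM tables the TMM factors were computed with listed zeros kept, and a listed 0 was then set to 1 RPM for the fold change. No fold change is printed against a listed 0, but such fold changes stayed in the ranks and shares over all miRNAs. The call was a log2 fold change beyond 1. With 1 library per condition no test was made between conditions. Where 0 reads were counted, 3 reads were taken as the limit, and no fold change is given against 3 reads or fewer. Intervals for day 3 minus day 0 are normal approximations on the log scale. Approximate reads in the RPM tables come from the step between values under 12 RPM, of which between 96.1% and 100% were whole numbers of reads within 0.1 read. A random step gives about 20%.

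Named were the members, their other arms and the antisense miRNA, miRNAs with a member's seed, the 3 nearest patterns of each member, and list members with the highest level or past the limit. The alternatives were scaling to library totals, upper-quartile factors, median-of-ratios factors (DESeq2 1.42.0), no filter, at least 10 CPM or RPM, a prior count of 2 (or 2 RPM added), the limit with a binomial test on reads, an exact test of edgeR with the coefficient of variation set to 0.4, a listed 0 set to 0.5 RPM, and Clopper-Pearson intervals for shares. TMM factors from all 4 hairpin libraries were added after seeing the data. The fits were tested on simulated data. Other tools were scipy 1.17.1, pandas 2.3.3, numpy 2.4.6 and matplotlib 3.10.9 in Python 3.11.15. Positions come from RefSeq and GENCODE on GRCm38.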

Additional observations from a re-analysis of the deposited data

Results flagged for a closer look

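In 3 cases the log2 fold change of a member had opposite signs under the same contrast and was past the limit of 1 in at least 1 of the conditions. The difference was not tested, with 1 library per condition. miR-146a-5p had a log2 fold change on PERK knockdown of 2.67 in C2C12 cells at day 0 and 3.46 at day 3, and of -0.10 in P19 cells. The differences, P19 minus C2C12, were -2.77 and -3.56. The P19 value lay between -0.71 and -0.03 over the alternatives. With TMM factors it was close to the median of -0.04 over all miRNAs of that pair, and its size depended on the scaling. Smaller changes of sign, such as that of miR-155-5p on knockdown in C2C12 cells (-0.19 at day 0 and 0.18 at day 3), stayed within the limit and are not counted here.

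miR-142a-3p had a log2 fold change from day 0 to day 3 of 1.28 in shNC cells and -1.31 in shPerk cells, a difference of -2.59. The shNC value rests on 28 and 60 reads.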

How the results depend on the processing

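With 1 library per condition, no library could be left out of any comparison, and no paired analysis was possible because no condition has more than 1 library. The counts of members past the limit on knockdown in C2C12 cells were 4 at both days under all alternatives but 1, no filter at day 3, where the single read of miR-223-3p made it 5. With at least 10 CPM, none was past it in shNC differentiation and 2 with ATF4, since the low members drop out by construction. With the exact test at an assumed coefficient of variation of 0.4 added to the limit, none was called in shNC or in shPerk differentiation, against 1 and 3, while the fold changes stayed the same and past the limit. In P19 cells none was past it with library totals, against 1.

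Of 243 recomputed fold changes of single members, 232 kept their call, 6 fell inside the limit, 4 lost the call to that exact test with the fold change still past the limit, 1 passed it and none of those past it changed sign. The 1 was miR-223-3p with ATF4 when the listed 0 was set to 0.5 RPM, a value set by that choice. From day 0 to day 3 in shPerk cells, miR-142a-5p was at -0.96 with no filter and at -0.98 with joint TMM factors, and miR-146a-5p at 0.89 with library totals. With ATF4, miR-142a-5p was at -0.93 with 2 RPM added.

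Day 3 minus day 0 of the knockdown change left its counting interval for miR-146b-5p with library totals (-0.67), upper-quartile factors (-0.56), no filter (-0.56) and at least 10 CPM (-0.34), and for miR-155-5p with library totals (0.17) and at least 10 CPM (0.50). Library totals moved the median of all miRNAs by the most in the P19 pair, to -0.65, and to between -0.19 and -0.40 in the hairpin comparisons, where the share of higher calls at day 3 fell from 48.8% to 35.9%, in shNC differentiation from 43.0% to 26.7% and in shPerk differentiation from 50.0% to 26.5%. Upper-quartile factors moved it to -0.38 in the ATF4 pair, where the share of higher calls fell from 62.0% to 29.9%. Clopper-Pearson intervals of the shares were close to the Wilson intervals. Counting error limits miR-142a in shNC cells, with 24 to 60 reads, and miR-223-3p throughout.

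The number of all miRNAs called differed by over 1.5 times under 3 alternatives. With no filter it was 588 against 216 on knockdown at day 0, 627 against 258 at day 3, 556 against 172 in shNC and 511 against 194 in shPerk differentiation. With at least 10 CPM or RPM these were 126, 163, 90 and 104, and 89 against 142 with ATF4. With the exact test at 0.4 they were 56, 51, 7 and 1.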
